A study of Salmo salar with 12 samples.

Results

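Short unmethylated regions of the Atlantic salmon (Salmo salar) genome were described in whole-genome bisulfite sequencing libraries of 3 tissues. The genome was divided into 1 kb windows, and a window was kept where the 12 libraries together listed 5 or more CpG cytosines. The pooled methylation level of a window was its methylated reads as a percentage of its reads, summed over the 12 libraries. A short region was a run of 1 to 3 directly consecutive windows with a pooled level under 15%, and runs of 4 or more such windows (called broad runs here) were left out. This rule found 24151 short regions, which held 31780 of the 1517602 windows (2.09%), beside 586 broad runs with 3051 windows. Of the short regions, 17623 were 1 window long, 5427 were 2 windows and 1101 were 3 windows long.

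The fish were females of a single management group kept in tanks, and no group carried a genetic modification. T4 was the last sampling after the start of a long-light photoperiod, a regime used to bring on sexual maturation, and T1 was the sampling just before it. The groups were pituitary T4, pituitary T1, ovary T4, ovary T1, liver T4 and liver T1, with 2 libraries each. T4 and T1 fish were different animals, so a difference between time points and a difference between individual fish cannot be told apart.

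In vertebrate DNA most CpG cytosines carry a methyl group, and short stretches without it stand out against that background. In well studied vertebrates such stretches often coincide with CpG-rich promoters and with other regulatory elements, where DNA-binding proteins keep methyltransferases away. Pituitary and ovary belong to the axis that controls reproduction, and the liver of a maturing female fish makes the yolk precursor vitellogenin. Each library came from a whole tissue, so a level between unmethylated and methylated cannot be divided into the share of cells that carry the mark and the level per cell. No annotation of the assembly used by the files (ICSASG_v2) was used here, so regions are given by position and not by gene, and the tissue labels were not checked against marker genes.

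The 12 libraries listed 9063730 to 12056957 cytosines each, with a median of 14 or 15 reads per cytosine. Summed over its cytosines, a library had 159785200 to 224866844 reads. Here and below a read was counted once for each listed cytosine it covered, so such sums are not numbers of sequenced fragments. Every listed cytosine had 10 or more reads. Pituitary T1 replicate 1 listed no cytosine with over 150 reads, against maxima of 4730 to 7395 reads in the other libraries. A short region had at least 1 listed cytosine in 74.0% to 89.4% of cases per library, and 11077 regions (45.9%) had 20 or more reads in every library. Levels per library are given over these 11077 regions. Fish codes in the titles of some libraries went against the pattern in the data, as given with the replicate comparison at the end. Tissue and time labels were taken from the library descriptions and were not checked.

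The pooled level chose the regions and is given as a description only. Its median was 3.07% over the short regions, against 85.4% over all windows. It was under 1% in 28.1% of short regions, 1 to 5% in 34.9%, 5 to 10% in 22.2% and 10 to 15% in 14.8%. In 2116 regions (8.76%) no methylated read was listed in any library. Just inside the limit were CM003293.1:61822001-61823000 at 14.9916% and 2 windows on other sequences at 14.9985% and 14.9959%, while the 3 windows just outside it stood at 15% exactly. The word unmethylated fits the pooled value better than every library: 65.1% of the 11077 regions were under 15% in every library, 28.3% were under 5% in every library, and 8.60% reached 30% or more in at least 1 library.

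Short regions were found on all chromosome sequences. They numbered 11.9 to 22.9 per 1000 windows by chromosome (median 16.7), with the lowest rate on CM003299.1 and the highest on CM003280.1, and 9.31 per 1000 windows on the other sequences. The median gap between successive short regions on a chromosome was 44000 bp (quartiles 15000 and 115000 bp). On the chromosome sequences 35.3% of them had another low run, short or broad, within 10 kb.

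The density of listed cytosines was similar in short regions and in the genome at large. It was higher within the low stretch of a region than beside it, in part by construction, as given below. Short regions held a median of 12.5 listed cytosines per kb (quartiles 8.5 and 17), all windows 11 (8 and 17) and broad runs 15.7 (13.2 and 18.6). Counted as CpG dinucleotides, with both strands merged, the medians were 11.5, 10 and 13.4 per kb. The median was higher in longer regions, at 12 per kb in regions of 1 window, 13.5 in regions of 2 and 14.7 in regions of 3. A window with under 5 listed cytosines ended a run, so long runs formed more readily where listing was dense. The rise with length, up to the broad runs, thus follows in part from the rule. These counts depend on depth as well as on sequence, because a CpG was listed only where a library had 10 reads. A cytosine of a short region was listed in a mean of 4.90 of the 12 libraries, against 5.80 over all windows, so the CpG content of short regions was counted less completely.

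The low stretch itself rarely matched the window grid, so its borders were traced from cytosine to cytosine. A core was the stretch around a region in which each cytosine, averaged by reads with its 2 neighbours on either side, had a pooled level under 50%, with no gap over 1 kb. The 24151 regions gave 23755 distinct cores, of which 12686 (53.4%) had a cytosine within 1 kb outside both borders. These 12686 cores had a median length of 1476 bp (quartiles 985 and 2046 bp), with 8.23% shorter than 500 bp and 6.73% longer than 3000 bp. Moving the border value to 30% or 70% gave medians of 1051 and 2048 bp.

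**Figure D1:**
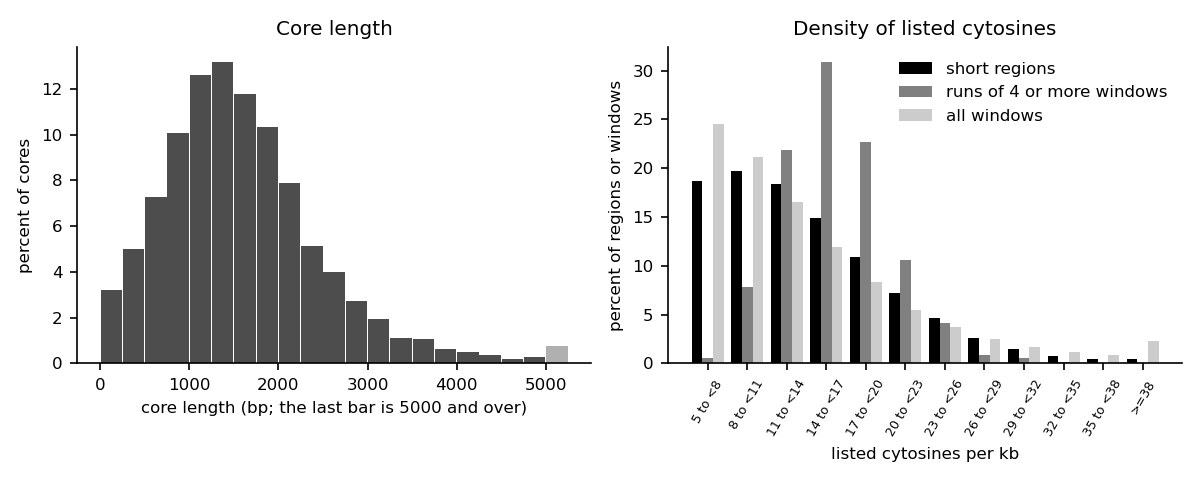
Left, lengths in bp of the 12686 cores with both borders measured, as percent of cores in steps of 250 bp (the last, lighter bar holds all cores of 5000 bp and over). Right, listed cytosines per kb in short regions, in broad runs and in all windows, as percent of each set; the distribution for short regions peaks at 8 to under 11 per kb, that for broad runs at 14 to under 17 per kb.

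Listed cytosines were denser inside cores than beside them. Over the 12355 cores of 200 bp or more with both borders measured there were 15.6 listed cytosines per kb in the core, 7.90 within 500 bp outside it, 8.29 from 500 to 1000 bp and 9.06 from 4000 to 5000 bp. Because a core starts and ends on a cytosine, its density is raised by construction. Cores were also traced from windows that had to hold 5 or more listed cytosines, a minimum not set outside them. Over all windows with that minimum the mean was 13.5 per kb. How much of the contrast comes from these rules was not tested.

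The border of a core was steep in all 3 tissues. The pooled level was 4.74% at 650 bp inside the border and 9.79% at 100 to 200 bp inside. It was 26.1% in the last 100 bp, where the border rule itself sets the values. A step deep inside comes only from cores long enough to reach it. Listed cytosines numbered 64417 in the last 100 bp, 21265 at 650 bp inside and 9064 at 1050 bp inside. The pooled level was 59.6% in the first 100 bp outside, where the border rule also shapes the value. It was 72.5% in the second 100 bp, 76.8% in the third, 79.1% in the fourth and 79.2% near 5000 bp. In the first 100 bp outside, the level was 58.5% ± 0.52 in pituitary, 58.5% ± 2.08 in ovary and 62.4% ± 0.81 in liver (SD, n = 4 libraries each). At 650 bp inside, it was 4.13% ± 0.15 in pituitary, 4.62% ± 0.34 in ovary and 5.55% ± 0.23 in liver (SD, n = 4 each). No test was made of these levels because the regions were chosen on them.

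**Figure D2:**
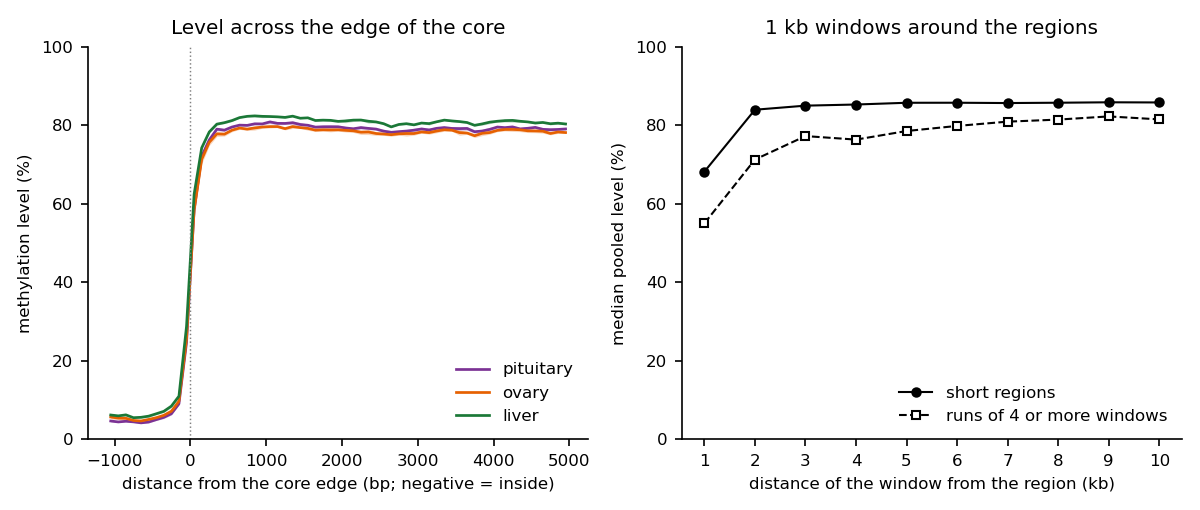
Left, methylation level (%) in steps of 100 bp by distance in bp from the core border, negative inside, for pituitary, ovary and liver (line, mean of 4 libraries; shading, SD, mostly no wider than the line); pooled levels are 5.41% at 1050 bp inside, 9.79% at 150 bp inside and 79.1% at 350 bp outside, with liver uppermost. Right, median pooled level (%) of the 1 kb windows at 1 to 10 kb from short regions (filled circles, 68.2% at 1 kb and 84.0% at 2 kb) and from broad runs (open squares, 55.0% and 71.3%).

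From the second kb on, the median level of the windows around short regions was close to that of the genome, while their mean was lower. The median pooled level of the windows was 68.2% at 1 kb from a short region, 84.0% at 2 kb, 85.8% at 5 kb and 85.9% at 10 kb, against 85.4% over all windows. The mean was 73.5% at 2 kb, 77.5% at 5 kb and 78.2% at 10 kb, against 80.1% over all windows. Low windows remained more frequent there: 4.63% of the windows at 10 kb were under 15%, against 2.30% of all windows. Around broad runs it was 55.0% at 1 kb, 71.3% at 2 kb, 78.6% at 5 kb and 81.5% at 10 kb. Other low windows were also closer to broad runs: of the windows at 2 kb, 7.41% were under 15% beside short regions, against 25.8% beside broad runs. The first window is never under 15% because it would then belong to the run. A level was given only for windows with 5 or more listed cytosines. Both sides of the 24151 short regions together gave 26922 such windows at 1 kb and 30194 at 2 kb. A run also ended where the next window had fewer listed cytosines, so these levels do not cover all surroundings of the regions.

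Liver had the highest mean level over the short regions and pituitary the lowest, with differences of about 1 percentage point. In pituitary the mean level over the 11077 regions was 4.60% and 4.48% in the T4 libraries, against 4.88% and 4.64% in the T1 libraries. In ovary it was 5.08% and 5.17% at T4, against 4.77% and 4.87% at T1. In liver it was 5.61% and 5.59% at T4, against 5.62% and 5.59% at T1. The 4 liver libraries thus lay above all 8 others, and the pituitary and ovary libraries overlapped. Pituitary minus liver was -0.95 points, ovary minus liver -0.63 points and pituitary minus ovary -0.32 points.

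The difference between time points had opposite signs in pituitary and ovary. T4 minus T1 was -0.22 points in pituitary, 0.30 points in ovary and -0.01 points in liver, where the libraries overlapped. The T4 and T1 libraries did not overlap in either pituitary or ovary, but those of pituitary overlapped when only cytosines listed in all 12 libraries were used (4.43% and 4.16% at T4, against 4.54% and 4.37% at T1) and with cytosines of 20 or more reads (5.04% and 4.79%, against 5.32% and 4.99%). Without pituitary T1 replicate 1 the difference was -0.10 points, and without pituitary T1 replicate 2 it was -0.34 points. The same signs were found over all windows, where the ovary libraries overlapped and T4 minus T1 was -0.49 points in pituitary, 0.51 points in ovary and -0.05 points in liver. The difference between pituitary and ovary was not tested, and no p-value is given for these means because the rule used the levels they average.

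**Figure D3:**
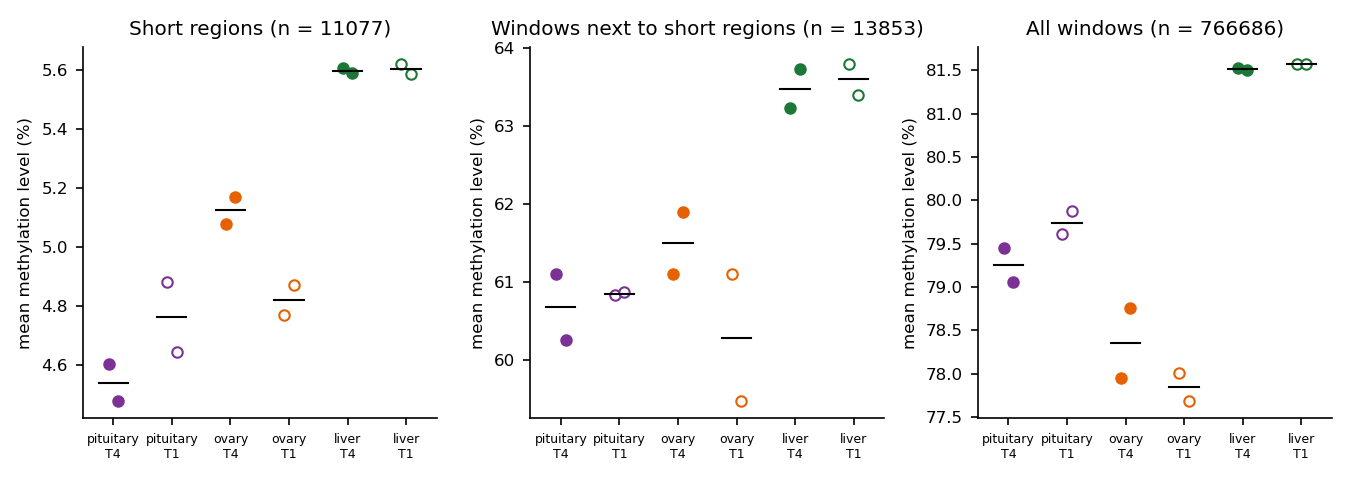
Mean methylation level (%) per library over short regions (n = 11077), the windows directly next to them (n = 13853) and all windows with enough reads (n = 766686), by tissue and time point (filled points T4, open points T1; lines, means of 2 libraries; each panel has its own axis that does not start at 0). Liver is highest in each panel, and the mean of the 4 ovary libraries is the lowest only over all windows.

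The order of the tissue means differed between short regions and the genome, but pituitary and ovary were not separate over short regions. Over the short regions the mean level was 4.65% ± 0.17 in pituitary, 4.97% ± 0.18 in ovary and 5.60% ± 0.02 in liver (SD, n = 4 each). The pituitary mean was lowest, but pituitary and ovary libraries overlapped. At T1 the means of pituitary and ovary were 4.76% and 4.82%, and at T4 they were 4.54% and 5.12%. Over all windows ovary was lowest, with 79.5% ± 0.34 in pituitary, 78.1% ± 0.46 in ovary and 81.5% ± 0.03 in liver (SD, n = 4 each). In broad runs the order was that of the short regions, with 4.40% ± 0.14 in pituitary, 4.60% ± 0.10 in ovary and 5.34% ± 0.16 in liver. Pituitary and ovary libraries overlapped there too. The order of the means within the 11077 short regions was the same in each class of density, and their levels were higher where cytosines were sparser. In regions with under 10 listed cytosines per kb the means were 5.45% ± 0.29 in pituitary, 5.58% ± 0.35 in ovary and 6.54% ± 0.06 in liver (SD). In regions with 20 or more per kb they were 4.18%, 4.69% and 5.13%. Over all 24151 short regions no such gradient was seen: the median pooled level was 3.07% with under 10 listed cytosines per kb, 3.11% with 10 to 20 and 2.98% with 20 or more.

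Single regions scattered around these means. Over the 11077 regions the median difference was -0.21 points for ovary minus liver, -0.33 for pituitary minus liver and -0.09 for pituitary minus ovary. Beyond 10 points were 6.53%, 6.76% and 5.31% of the regions. For T4 minus T1, with fewer libraries a side, the shares were 4.39% in pituitary, 5.52% in ovary and 5.27% in liver. Counting error is part of this scatter. The windows were tested one by one for tissue and time with edgeR's quasi-likelihood test, using the methylated and unmethylated reads of the cytosines listed in all 12 libraries, over every window with 3 or more such cytosines. Of 494902 tested windows 7784 belonged to 6931 short regions (28.7% of the regions). A further 201 windows of short regions had no methylated read and could not be tested. A window was called at an adjusted p under 0.05, by Benjamini-Hochberg over all windows. Tested windows of short regions had a median of 119 reads per library, of which 3 were methylated, against 118 reads over all tested windows.

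For ovary against liver 1188 of the 7784 windows of short regions were called (15.3%), where the share over all tested windows was 19.3%. They were higher in ovary in 359 windows and lower in 829, or 4.61% and 10.7%, where 2.52% and 16.8% of all windows were higher and lower. Pituitary against liver gave 1487 called windows (19.1%, against 19.4% of all windows), 427 of them higher in pituitary and 1060 lower, or 5.49% and 13.6%, where the shares of all windows were 5.52% and 13.9%. Pituitary against ovary gave 1088 called windows (14.0%, against 20.9% of all windows), 469 of them higher in pituitary and 619 lower. Over all windows 13.2% were higher in pituitary than in ovary and 7.7% were lower, so the larger share was the other way round from that in short regions. The median difference of the called windows was 7.79 points between ovary and liver, 7.24 between pituitary and liver and 7.39 between pituitary and ovary. Tissues of one fish entered these tests as independent libraries.

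In all, 2266 windows of short regions (29.1%) were called in at least 1 pair of tissues, against 33.2% of all tested windows. Liver had the highest mean level in 1164 of these 2266 windows (51.4%, against 55.7% of all windows so called), ovary in 566 (against 10.3%) and pituitary in 536 (23.7%, against 34.0%). The share called was larger at higher pooled levels, which limit how far a window can differ. It was 6.36% of windows under 1%, 26.0% of those at 1 to 5%, 40.4% at 5 to 10% and 47.4% at 10 to 15%. It was 30.0% of the 6098 windows in which the core covered every listed cytosine, and 26.0% of the 1686 windows with a border of the core within them.

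**Figure D4:**
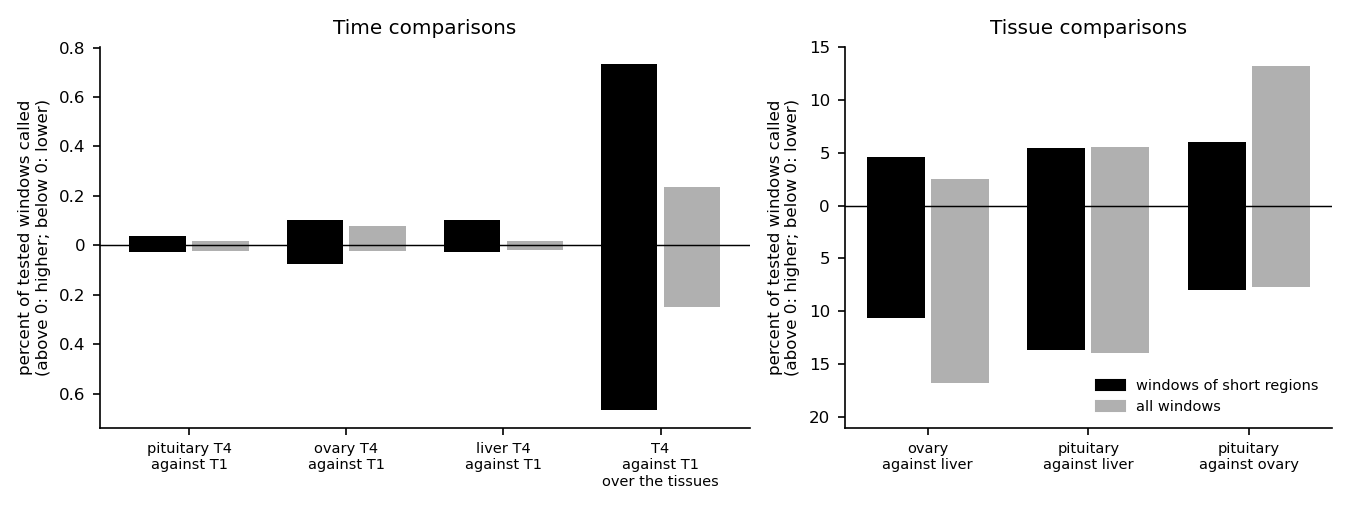
Percent of tested windows called at an edgeR adjusted p under 0.05, for windows of short regions (black) and all windows (grey); bars above 0 show windows higher, bars below 0 windows lower, in T4 or in the first-named tissue. Left, time comparisons, where no bar passes 0.8%. Right, tissue comparisons on their own axis; black and grey bars differ most for pituitary against ovary.

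The named windows below had the smallest p in each comparison among those without overlap between the libraries compared, at most 3 each. They bear letters, and the coordinates after a letter are those of the window. Windows A and M lay in short regions of 3 windows, and E, F and J in short regions of 2 windows. Region H (CM003280.1:12942001-12943000, 14 cytosines listed in all libraries) lay between 0 and 0.82% in all 8 ovary and pituitary libraries. In liver it had levels of 30.4% and 43.3% in the T4 libraries and 48.8% and 36.3% in the T1 libraries. For ovary against liver the log2 odds ratio was -7.25 (edgeR adjusted p = 8.67e-11). The window was thus nearly free of methylation in ovary and pituitary and partly methylated in liver. In every window named for tissue, the limit on the pooled level left little room for another high tissue.

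Region G (CM003292.1:45659001-45660000) showed 3 separate levels. It stood at 14.7%, 14.3%, 11.7% and 16.2% in pituitary, at 1.72%, 1.46%, 0.75% and 0.24% in ovary, with T4 libraries first, and at 22.7% to 30.4% in liver. For ovary against liver the log2 odds ratio was -5.32 (edgeR adjusted p = 3.85e-11). Region I (CM003282.1:52799001-52800000) was at 3.02% to 5.36% in ovary and at 29.2% to 40.2% in liver, with pituitary at 3.36% to 4.22% (ovary against liver, edgeR adjusted p = 1.06e-10). None of the tissues overlapped in region G, and liver stood apart in region I.

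Liver was also the high tissue in the 3 windows named for pituitary against liver. Region J (CM003283.1:49373001-49374000) had 0 to 0.76% in the 4 pituitary libraries and 40.6%, 46.3%, 34.4% and 29.4% in the liver libraries, T4 first, with ovary at 3.75% to 4.55% (log2 odds ratio -7.24, edgeR adjusted p = 3.96e-12). Region K (CM003295.1:23809001-23810000) had 0.885% to 2.08% in pituitary and 31.6% to 37.6% in liver (edgeR adjusted p = 5e-12). Region L (CM003288.1:63270001-63271000) had 0.92% to 1.31% in pituitary and 18.7% to 41.4% in liver (edgeR adjusted p = 1.45e-11). In each of the 3 the ovary libraries, at 2.08% to 6.11%, lay between pituitary and liver.

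The windows named for pituitary against ovary were high in pituitary or in ovary and low in liver. A liver as high as that tissue would have put the window over the limit on the pooled level. The low liver thus follows in part from the rule and is not a result. Region M (CM003304.1:38252001-38253000), inside a core of 13423 bp, stood at 26.1%, 22.9%, 29.1% and 32.1% in pituitary, T4 first, and at 2.14% to 3.07% in ovary, with liver at 3.39% to 8.09% (log2 odds ratio 3.82, edgeR adjusted p = 5.79e-11). Region N (CM003284.1:40688001-40689000), inside a core of 11999 bp, was the reverse, with 1.41% to 4.15% in pituitary and 35.1%, 25.2%, 40.7% and 51.9% in ovary (log2 odds ratio -4.38, edgeR adjusted p = 7.46e-10). Region O (CM003281.1:53667001-53668000) had 2.71% to 4.60% in pituitary and 17.8% to 28.0% in ovary (edgeR adjusted p = 8.52e-10). The cores around M and N were thus far longer than the regions themselves.

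Regions with 1 tissue 20 points over both others, among the 11077, numbered 91 for liver, 32 for pituitary and 26 for ovary. By that measure the extremes were CM003290.1:46286001-46287000 for liver, with 54.6%, 53.9%, 34.5% and 24.9% in liver (T4 first) against at most 2.93% elsewhere, and CM003298.1:21878001-21879000 for ovary, with 25.5%, 40.3%, 51.9% and 41.3% in ovary against at most 2.55% elsewhere. For pituitary on the chromosome sequences it was CM003279.1:132523001-132524000, with 30.4%, 38.1%, 37.1% and 28.3% in pituitary against at most 6.10% elsewhere. The second regions of liver (CM003294.1:13387001-13388000) and of ovary (CM003291.1:35635001-35636000) had 32.2% to 61.9% and 32.1% to 51.4% in their own tissue. The 61.9% was liver T1 replicate 2, with 13 methylated of 21 reads, and the other liver libraries were at 32.2% to 42.8%. The first and second ovary regions lay inside long cores, of 7464 and 12414 bp. The cores were 1185 and 673 bp for the liver regions and 995 bp for the pituitary region. Levels over the 11077 regions, these included, used the cytosines that each library itself listed, which differ between libraries. All these regions were picked for their difference, so no test is given.

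At the other end stood the region with the most listed cytosines. CM003287.1:54740001-54741000 held 60 listed cytosines in 1 kb and had a pooled level of 0.16%, with 0 to 0.44% in every library. In 7 of its libraries no read among 147 to 380 was methylated, which allows up to 0.79% to 2.04% if all counts are independent. The next densest, with 59 and 55 per kb (CM003285.1:13781001-13782000 and CM003280.1:8923001-8924000), had pooled levels of 14.5% and 5.70%. In the first of these ovary T4 replicate 2 was at 51.8% (73 of 141 reads), with the other libraries at 6.84% to 22.1%. Reads in that region ran from 68 in liver T4 replicate 2 to 727 in ovary T1 replicate 2. Each level used the cytosines that the library itself listed, so the libraries were not compared over the same cytosines. In the second the libraries were at 1.36% to 13.0%. At the low end 1390 regions were tied at 5 listed cytosines per kb, and none of them is singled out.

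**Figure D5:**
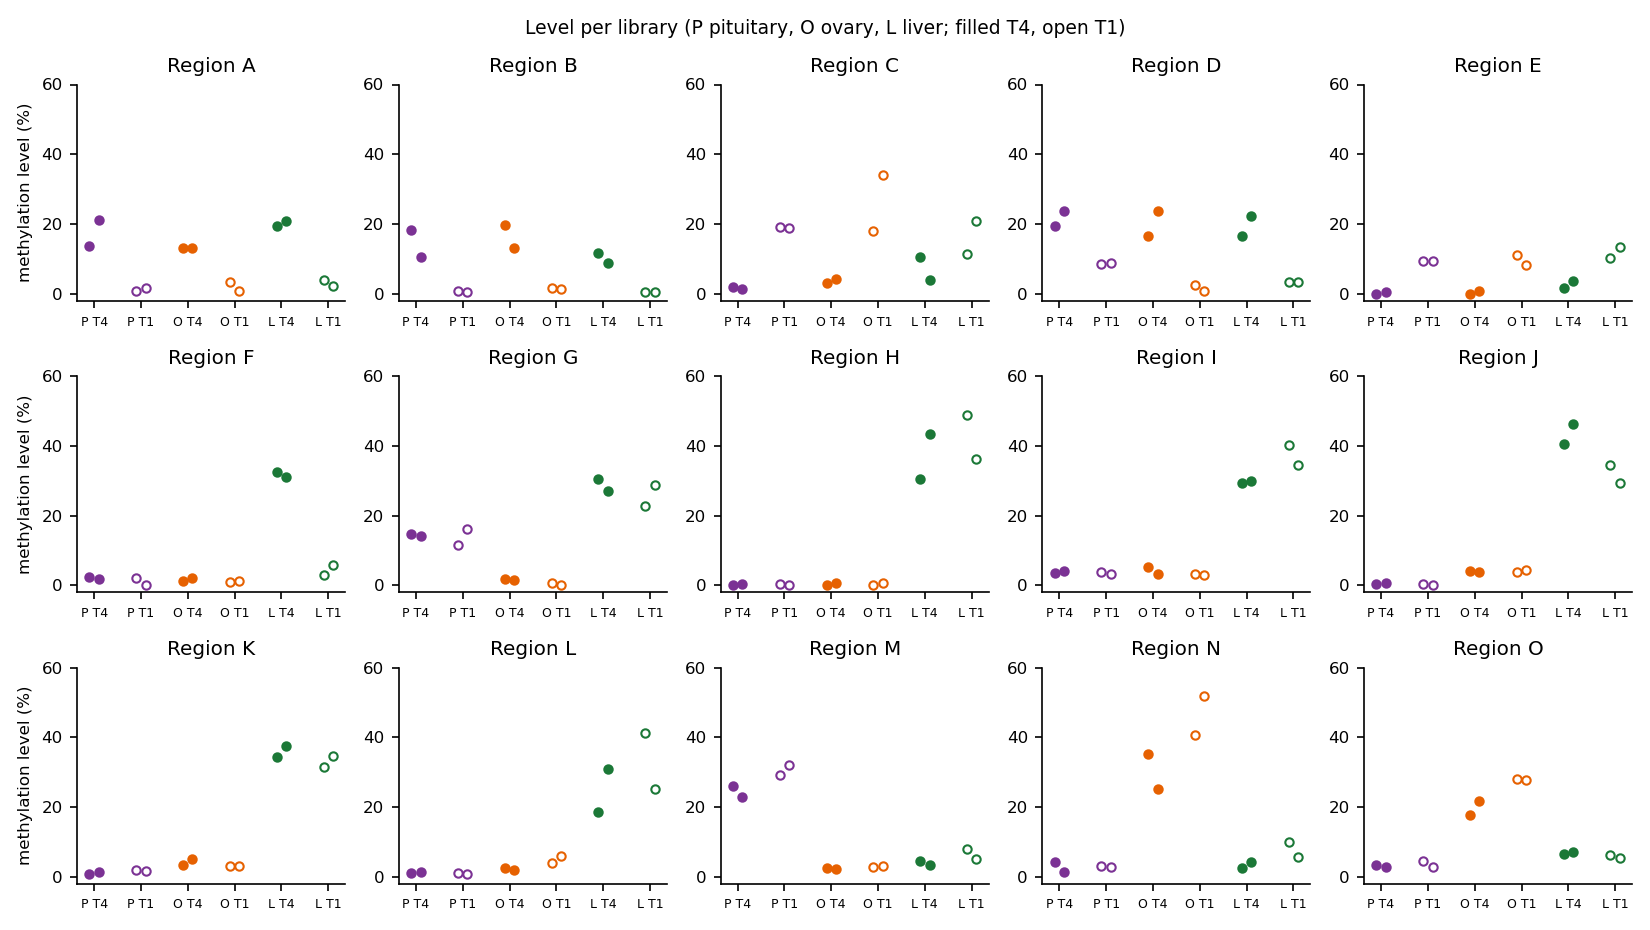
Methylation level (%) per library in the 15 named windows, lettered as in the text; P, pituitary, O, ovary, L, liver; filled points T4, open points T1. Regions A to F were named for time, and T4 and T1 points separate in every tissue of A to E and in liver of F, which the naming rule required in the tissues named. Regions G to O were named for tissue. In each, a single tissue stands at 17.8% or more with the others under 10%, apart from pituitary in G. The limit on the pooled level left little room for another high tissue.

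Levels of single libraries in the 15 lettered windows rested on 76 to 933 reads, and their 95% Wilson intervals were 1.05 to 18.5 points wide (median 5.17). Where a library had no methylated read there, its reads allow up to 0.83% to 2.19%. In the regions picked without a test the reads were 21 to 767, and the intervals were up to 38.4 points wide (median 5.78). Intervals and limits treat every count as independent and cover counting error only. A read over several cytosines of a window was counted for each of them, however. Reads from one amplified molecule also cannot be told from independent ones beyond the authors' removal of duplicates. The intervals are thus likely too narrow and the limits too low, even for counting error.

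Few windows of short regions differed between time points within a tissue. In pituitary 5 of 7784 were called (0.064%, against 0.0424% of all windows), with T4 higher in 3 and lower in 2 (0.018% and 0.0244% of all windows). In ovary 14 were called (0.18%, against 0.0988% of all windows), 8 higher and 6 lower at T4 (0.0764% and 0.0224% of all windows). In liver 10 were called (0.128%, against 0.0378% of all windows), 8 higher and 2 lower at T4 (0.018% and 0.0198% of all windows). These counts depended on single libraries and on the test. Limma on log2 ratios called 0 in each tissue, and 8 to 10 of all 494902 tested windows. At an unadjusted p under 0.05 edgeR had 743 windows in pituitary, 892 in ovary and 783 in liver (9.55%, 11.5% and 10.1%, against 5.70%, 8.26% and 5.19% of all windows). The edgeR count in ovary fell without ovary T1 replicate 2, T4 replicate 1 or T4 replicate 2. In the same fits the count over all windows fell too. In liver it fell without T1 replicate 1, T1 replicate 2 or T4 replicate 1, as did the count over all windows. In pituitary it rose without T4 replicate 2, where the count over all windows fell.

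Over the 3 tissues together 109 windows of short regions were called for T4 against T1 (1.40%, against 0.485% of all windows), 57 higher and 52 lower at T4 (0.234% and 0.251% of all windows), with a median difference of 11.8 points. This test treats the 12 libraries as independent although libraries of different tissues came from the same fish, so its p-values are too small for a difference between groups of fish. Limma called 29 windows (0.373%, against 0.104% of all windows). The edgeR count was lower without liver T4 replicate 2, ovary T1 replicate 1 or ovary T4 replicate 2, and so was that over all windows. No window of a short region was called for a time change that differed among tissues (edgeR, 1 of all windows or 0.000202%, and 642 or 8.25% at an unadjusted p under 0.05, against 5.35% of all windows), and limma also called 0. The edgeR count for such a change rose without ovary T1 replicate 1, pituitary T1 replicate 2 or liver T4 replicate 2. Over all windows it rose in the same fits.

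The windows named for time were picked for separating T4 from T1 libraries. Regions A, B and D were named over the tissues, which required that separation within each tissue. Within a single tissue no window named for time passed with limma (adjusted p 0.08 to 0.651). With all listed cytosines the calls in liver for region A and in ovary and liver for region D were also lost. Region A (CM003292.1:56761001-56762000, 12 common cytosines) was at 13.6% and 21.2% in pituitary T4 against 0.88% and 1.81% in pituitary T1, at 13.2% and 13.3% in ovary T4 against 3.32% and 0.90% in ovary T1, and at 19.4% and 20.8% in liver T4 against 3.86% and 2.30% in liver T1. All 6 T4 libraries lay above all 6 T1 libraries. The log2 odds ratio over the tissues was 3.17 (edgeR adjusted p = 9.55e-07). Its sign did not reverse without each of the 12 libraries in turn. Leaving out 1 library can leave the same fish in through its other tissues, so those fits do not check a difference between groups of fish. As libraries of 1 fish were treated as independent, the p-values over the tissues of regions A, B and D are too small.

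Region B (CM003290.1:22412001-22413000) was also higher at T4, with 18.2% and 10.5% in pituitary T4 against 0.77% and 0.57% in pituitary T1, 19.9% and 13.3% in ovary T4 against 1.82% and 1.37% in ovary T1, and 11.7% and 8.94% in liver T4 against 0.51% and 0.61% in liver T1. Over the tissues its log2 odds ratio was 4.09 (edgeR adjusted p = 2.15e-06). Region D (CM003292.1:59698001-59699000) had 16.6% to 23.9% in the 6 T4 libraries against 0.71% to 8.89% in the 6 T1 libraries (log2 odds ratio over the tissues 2.72, edgeR adjusted p = 5.48e-06). The separation of T4 from T1 within each tissue in regions A, B and D was required by the naming rule and is not a result.

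In the other direction, region E (CM003280.1:72745001-72746000) was at 0 to 3.81% in the T4 libraries and at 8.24% to 13.3% in the T1 libraries of all tissues. It was named for ovary T4 against T1 (log2 odds ratio -4.67, edgeR adjusted p = 0.00671, and 0.197 with limma). Its window held 5 listed cytosines at a mean coverage of 42.5 reads, just inside the coverage limit for naming. Region C (CM003290.1:81007001-81008000) had 1.51% to 4.17% at T4 in pituitary and ovary, against 18.1% to 34.2% at T1, while liver had 10.5% and 4.03% at T4 against 11.5% and 20.9% at T1. Its adjusted p by edgeR was 0.00726 in pituitary and 0.011 in ovary, and with each pituitary library left out in turn it was 0.0595 to 0.159 in pituitary. In ovary it passed without T1 replicate 1 but not without T1 replicate 2, T4 replicate 1 or T4 replicate 2 (up to 0.193). With all listed cytosines the call in region C was lost in both tissues, at log2 odds ratios of -2.17 in pituitary and -2.11 in ovary, against -3.65 and -3.16. Liver was the tissue with the smallest gap between time points in region C, but a change differing among tissues did not pass the test there (edgeR adjusted p = 0.842).

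Region F (CM003306.1:34200001-34201000) separated the time points in liver, with 32.4% and 31.2% at T4 against 3.08% and 5.84% at T1. The 8 pituitary and ovary libraries were at 0 to 2.41%. In liver the log2 odds ratio was 3.27 (edgeR adjusted p = 0.0092), but with each liver library left out in turn the adjusted p was 0.0626 to 0.164, and with limma it was 0.441. Whether the change in region F differed among tissues did not pass the test (edgeR adjusted p = 0.948).

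Some libraries of different tissues deviated together in the short regions. For each library the deviation from the mean of its tissue was taken in each of the 7784 windows, and deviations were correlated over windows between libraries of different tissues. In 8 of the 48 pairs the correlation was 0.35 to 0.46, and in the other 40 it was -0.27 to 0.16. The points are windows and not independent samples, and the values are a description. All 8 were among the 12 pairs that share time point and replicate number, and over all 494902 windows the same 8 pairs had correlations of 0.13 to 0.21.

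The titles give a fish code for each library, and 5 of these 8 pairs had the same code. The other 3 went against the titles: ovary T1 replicate 1 deviated with liver T1 replicate 1 (0.43) and pituitary T1 replicate 1 (0.45), whose code its title does not share, and ovary T4 replicate 1 deviated with pituitary T4 replicate 1 (0.46) instead of liver T4 replicate 1 (0.075), whose code it shares. The file names give the 2 ovary T1 libraries the opposite codes from the titles. The groups were taken from the library descriptions and do not depend on the fish codes. The fits that used the codes are given with the other settings.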

How the data were processed

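Whole-genome bisulfite sequencing libraries of female Atlantic salmon were analysed, 12 in all, with 2 for each of 3 tissues and 2 time points. The authors trimmed reads with Trim Galore 0.5, aligned them with BS-Seeker2 2.1.8 and Bowtie2 to ICSASG_v2, removed duplicates with Picard and deposited, per library, the count of reads and the count of methylated reads at CpG cytosines with 10 or more reads. These deposited counts are not normalised. Groups and replicate numbers came from the library descriptions. The regions and tests were chosen with earlier results of these data known.

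Windows of 1000 bp counted from the first base of each sequence, and coordinates are 1-based. Windows were tested with edgeR 4.0.16 (R 4.3.3): methylated and unmethylated reads of a library formed 2 columns, with a term for each library and for the methylated reads of each of the 6 groups, a common dispersion of 0.0236 estimated on 20000 windows and Benjamini-Hochberg adjustment over 494902 windows. The study's own test for differential methylation was not run. The edgeR script was tested on simulated data. Limma 3.58.1 on log2((methylated + 1)/(unmethylated + 1)), other coverage minimums, blocks, and fits without each library were the alternatives. Each p-value rests on a spread estimated over all 6 groups of 2 libraries together, and not on the 2 fish of a group alone. Libraries of different tissues can share a fish, so not all libraries are independent.

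Named windows were, for each comparison, up to 3 with the smallest p among called windows without overlap between the libraries compared and with a mean coverage of at most 3 times the median (14.35 reads per listed cytosine). Regions E, I and L came nearest to that limit, at 42.5, 39.2 and 37.2 reads per listed cytosine. Others were picked by density, by nearness to the limit and by their excess in 1 tissue, with no test. Same-numbered libraries of T4 and T1 did not deviate together (correlations of -0.04 to 0.01 over all windows), so the numbers do not pair the time points.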

Additional observations from a re-analysis of the deposited data

Results flagged for a closer look

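The mean level over short regions moved in opposite directions in pituitary and ovary: both T4 libraries lay below both T1 libraries in pituitary, and above them in ovary. The pituitary libraries overlapped with cytosines listed in all 12 libraries and with cytosines of 20 or more reads. The difference of T4 minus T1, pituitary minus ovary, was -0.53 points. The difference between the tissues was not tested, and over all windows T4 minus T1 had the same signs.

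In 8 of 57 sets of 4 libraries of a tissue, 1 library passed Dixon's gap test against the other 3. Chance gives this in about 1 of 20 sets of continuous values, but that rate does not apply where the other 3 had 0 methylated reads, since a single methylated read then passes. In region I ovary T4 replicate 1 was at 5.36%, with the other ovary libraries from 3.02% up and under 4%. In region K ovary T4 replicate 2 was at 5.04%, with the others at 3.14% to 3.32%. In the densest region (CM003287.1:54740001-54741000) pituitary T4 replicate 2 was at 0.26% and ovary T1 replicate 2 at 0.28%, and the other 6 libraries of these tissues had 0 methylated reads. These levels were 2 of 767 and 1 of 353 reads, with 95% Wilson upper bounds of 0.946% and 1.59%, and do not stand apart from what 0 methylated reads allow in the others.

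In the second ovary-high region (CM003291.1:35635001-35636000) liver T1 replicate 2 was at 5.97%, with the other liver libraries at 2.83% to 3.05%. In the first liver-high region (CM003290.1:46286001-46287000) ovary T4 replicate 1 was at 2.93%, with the others at 0 to 0.34%, and pituitary T4 replicate 2 was at 0.27% (1 of 376 reads, upper bound 1.49%), with 0 methylated reads in the other 3, from which it does not stand apart. In the second liver-high region (CM003294.1:13387001-13388000) pituitary T4 replicate 1 was at 3.64%, with the others at 0.25% to 0.40%.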

How the results depend on the processing

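The number of short regions was 21273 and 26737 with limits of 10% and 20%, 23985 with the windows shifted by 500 bp and 5414 with only cytosines listed in all 12 libraries, the alternative by which it changed most. Median density was 13 and 12 per kb and median core length 1525 and 1423 bp with limits of 10% and 20%, and core length was 1051 and 2048 bp with borders at 30% and 70%. Cytosines with 20 or more reads left 1408 windows of short regions to test. Of these, 2 were called for pituitary T4 against T1 (0.142%, against 0.0345% of all windows so tested) and 7 for ovary (0.497%, against 0.271%). For liver 1 was called (0.071%, against 0.0396%), and over the tissues 18 (1.28%, against 0.588%). Between ovary and liver 264 were called (18.75%, against 26.5%). Between pituitary and liver it was 303 (21.5%, against 26.3%), and between pituitary and ovary 204 (14.5%, against 28.6%). With 1 or more common cytosines the counts were 12 for pituitary T4 against T1 (0.104%, against 0.0514% of all windows so tested) and 23 for ovary (0.2%, against 0.0908%). Over the tissues the count was 167 (1.45%, against 0.517%). Limma called 0 for each tissue's T4 against T1 (8 to 10 of all windows) and 29 over the tissues (0.373%, against 0.104% of all windows). It called 1108 between ovary and liver (14.2%, against 17.3%) and 1408 between pituitary and liver (18.1%, against 17.5%). Between pituitary and ovary it called 1012 (13%, against 18.1%). The replicate block gave 20, 47 and 21 for pituitary, ovary and liver T4 against T1 (0.257%, 0.604% and 0.27%, against 0.0824%, 0.216% and 0.0733% of all windows). Over the tissues it gave 189 (2.43%, against 0.707%). The replicate numbers do not pair T4 with T1 fish, however, and the block changed no tissue count by over 1.5 times. Without each library in turn the counts ranged from 4 to 8 in pituitary, 1 to 19 in ovary, 2 to 14 in liver, 59 to 121 over the tissues and 0 to 4 for a time change that differed among tissues. With fish codes as a block the tissue counts were 858 to 1267 by the titles (11% to 16.3%, against 14.5% to 16.8% of all windows). By the file names, a fit added after the data were seen, they were 907 to 1407 (11.7% to 18.1%, against 15.5% to 18%). T4 minus T1 over short regions was 0.42 points in ovary and 0.022 in liver with cytosines listed in all libraries, 0.41 and 0.14 with cytosines of 20 or more reads, and -0.0907 in liver with summed reads. With 20 or more reads, ovary minus liver was -0.93 and pituitary minus liver -1.16 points. The causes of these shifts were not tested. No named window reversed under any setting run, and the 9 tissue windows stayed past the threshold under each setting that gave them a value. At a median of 3 methylated reads per window and library, small differences were not detectable at this depth.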
